A study of Mus musculus with 40 samples.

Results

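The transcripts of bone morphogenetic proteins (BMPs), activins, GDF15 and proteins that bind them were followed in hearts in which cardiomyocytes were made to express *Il11*. The set was chosen by gene name and held 9 genes: the ligand genes *Bmp2*, *Bmp4*, *Bmp6*, *Inhba*, *Inhbb* and *Gdf15*, and the antagonist or follistatin-family genes *Grem1*, *Fstl1* and *Fstl3*. Of these, 8 were listed in both expression tables, among 17646 genes in the male table and 17223 in the female table, and all 8 passed the filter on low values. *Grem1*, which encodes the BMP antagonist gremlin-1, was listed in neither table and has no value here.

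BMPs and activins are dimeric ligands of the TGFβ superfamily. They bring type I and type II receptor kinases together, and the type I receptor then phosphorylates SMAD proteins, SMAD1, SMAD5 and SMAD9 for most BMPs and SMAD2 and SMAD3 for activins. Secreted antagonists such as follistatin, noggin and gremlin hold the ligands away from their receptors. *Inhba* and *Inhbb* encode the β subunits that make up activin A and activin B, and GDF15 is a distant family member known as a circulating signal of tissue stress.

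The libraries came from polyA RNA of mouse hearts, described in the study's text as left ventricular tissue. CM-Il11-Tg mice carry the *Rosa26-Il11* transgene together with MerCreMer under the α-MHC promoter, so that tamoxifen switches on *Il11* in cardiomyocytes. Controls (genotype WT in the labels) were littermates that also carried MerCreMer but not *Rosa26-Il11*, and they received tamoxifen as well. CM-Il11-Tg hearts were taken without tamoxifen (uninduced) and 1, 3 and 6 weeks after induction at 8 weeks of age, by intraperitoneal tamoxifen on 5 consecutive days at 20 mg/kg. The labels place the controls at baseline and give no time after tamoxifen for them. The study calls its controls age-matched, but the same controls of a sex served every week. Time under *Il11* therefore cannot be told apart from age or time since tamoxifen. Each group held 4 libraries per sex, apart from male controls and male 6-week hearts with 3 each, because 2 further male libraries had a title and a description that named opposite groups and entered no comparison. Values are in CPM (read counts scaled to library size) as deposited, 1 table per sex, and were compared within a sex only.

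The promoters of the gene with the largest rise and of the gene with the largest fall are shown as the 250 bases before the RefSeq start, 5′ to 3′ along the gene, from build GRCm38.p6. The window of *Inhbb* lies at chr1:119422249-119422498 (minus strand) and that of *Bmp4* at chr14:46390670-46390919 (minus strand).
*Inhbb*: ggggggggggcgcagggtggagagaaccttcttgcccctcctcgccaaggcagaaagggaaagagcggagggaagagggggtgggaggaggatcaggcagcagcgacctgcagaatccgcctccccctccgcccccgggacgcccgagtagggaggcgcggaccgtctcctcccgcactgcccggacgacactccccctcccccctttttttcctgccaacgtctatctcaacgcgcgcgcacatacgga
*Bmp4*: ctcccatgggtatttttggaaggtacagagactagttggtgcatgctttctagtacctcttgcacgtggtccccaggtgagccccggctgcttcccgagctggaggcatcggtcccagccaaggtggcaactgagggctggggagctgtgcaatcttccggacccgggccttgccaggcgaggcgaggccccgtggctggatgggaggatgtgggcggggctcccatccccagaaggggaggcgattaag
Both strands were searched for the STAT site TTCNNNGAA, the C/EBP-ATF composite site TGATGNAAT and the GC-rich SMAD1/5 site GGCGCC. Among 32851 promoter windows of this length, 7.02% held the STAT site, 0.816% the composite site and 9.59% the SMAD1/5 site. None of the 3 was found in the window of *Inhbb*, *Bmp4*, *Bmp6*, *Inhba*, *Gdf15*, *Fstl1* or *Fstl3*. The window of *Grem1* held GGCGCC, from 78 to 73 bases before the start. *Bmp2* had no window.

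Libraries held between 16663513 and 65333832 reads on listed genes in males and between 19147947 and 30929192 in females. *Il11* was at 0 to 0.166 CPM in the controls of both sexes, at 15.5 to 49.1 CPM in the uninduced hearts and at 328 to 819 CPM in the induced hearts, so the uninduced hearts were not free of transgene transcript. In 2 female libraries, replicate 2 at 1 week and replicate 2 at 6 weeks, the atrial cardiomyocyte markers *Myl4* and *Myl7* summed to 119 and 729 CPM, against 1.02 to 3.14 CPM in the other 18 female libraries. In males *Myl4*, the only listed atrial marker, was at 0.676 to 2.58 CPM. Results of *Bmp2* and *Inhba* that rest on those 2 female libraries, and the counts of the set against control, are given with and without them. The pathway lists are given with them only. The deposited columns summed to 1063756 to 1196278 in controls and to 817395 to 1165099 in induced hearts. Scaling every library by its read total alone (called read-total scaling below) instead moved the median log2 difference of all genes against control from between -0.02 and 0.02 to between 0.16 and 0.33 in the induced weeks. It also moved the share of higher genes among those passing at 1, 3 and 6 weeks from 56.4%, 62.0% and 59.9% to 90.8%, 90.8% and 85.8% in males and from 53.7%, 53.7% and 50.8% to 92.3%, 92.2% and 88.9% in females. In uninduced females that share went from 83.8% to 96.0%.

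Of the set, *Inhbb* and *Fstl1* were higher than control at every induced week in both sexes, and *Fstl3* at every week except 1 week in males. *Bmp4* was lower at every induced week and *Bmp6* at every week except 6 weeks in females, calls that were mostly lost with read-total scaling. *Gdf15* passed the test in no comparison. A gene passed when its Benjamini-Hochberg adjusted p from limma, over 16931 male or 16956 female genes, was under 0.05. Against control, 3 of the 8 genes were higher and 2 lower in males at 1, 3 and 6 weeks. Over all genes tested, 18.9% were higher and 14.6% lower at 1 week, 13.2% and 8.1% at 3 weeks, and 16.2% and 10.9% at 6 weeks. In females 4 of the 8 were higher and 2 lower at 1 week, with 15.3% and 13.1% over all genes. At 3 weeks 3 were higher and 2 lower, with 16.8% and 14.5% over all genes, and at 6 weeks 4 were higher and 1 lower, with 21.7% and 21.0%. Without the 2 high-atrial libraries the female counts were 4 and 2, 4 and 2, and 4 and 1. The median log2 fold change of the 8 genes was 0.64, 0.57 and 0.49 at 1, 3 and 6 weeks in males and 0.79, 0.27 and 0.86 in females. The comparisons of the 3 weeks share their control libraries. All levels are from whole tissue, in which fewer cells of a type and less RNA per cell cannot be told apart.

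**Figure D1:**
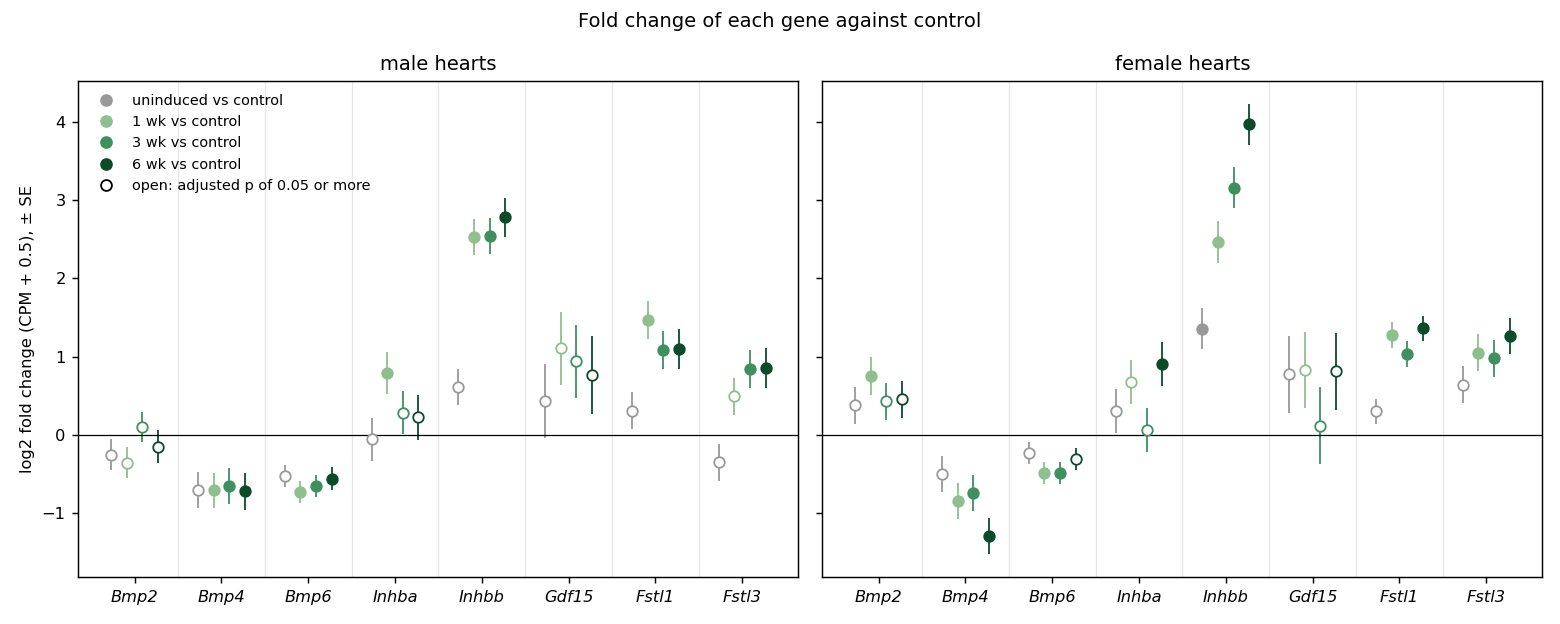
Log2 fold change against control, on log2(CPM + 0.5), of the 8 listed genes in male and female hearts that were uninduced or 1, 3 and 6 weeks after tamoxifen. Error bars are standard errors and filled points have an adjusted p under 0.05 (limma). *Inhbb* reached 3.96 ± 0.27 in females at 6 weeks, and *Bmp4* lay at -1.29 ± 0.23 in the same hearts.

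*Inhbb*, the activin B subunit gene, showed the largest change of the set. It lies on GRCm39 chromosome 1 from 119343193 to 119350021 on the minus strand. In male controls it was at 2.698, 2.31 and 2.34 CPM and in uninduced males at 4.98, 3.71, 4.47 and 3.14 CPM. The male libraries held 15.3, 14.6, 17.2 and 19.0 CPM at 1 week, 25.1, 19.1, 12.1 and 12.96 at 3 weeks, and 27.6, 20.02 and 13.8 at 6 weeks. Every one of the 11 induced male libraries lay above every control and every uninduced library.

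The log2 fold change of *Inhbb* against control in males was 2.52 ± 0.23 (SE), 2.54 ± 0.23 and 2.78 ± 0.25 at 1, 3 and 6 weeks, with adjusted p of 1.18e-07, 1.04e-07 and 7.26e-08. In females the 4 controls held 0.861, 0.871, 2.101 and 1.55 CPM, and the uninduced hearts 2.33, 4.95, 8.07 and 2.75 CPM. The values were 9.92, 11.05, 8.53 and 7.98 CPM at 1 week, 15.03, 12.96, 17.5 and 16.3 at 3 weeks, and 21.6, 27.97, 32.4 and 28.1 at 6 weeks. The 3 induced groups of females did not overlap with the controls or with one another.

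The changes of *Inhbb* against female controls were 2.46 ± 0.27, 3.16 ± 0.27 and 3.96 ± 0.27 on the log2 scale, the last a 15.6-fold difference, with adjusted p of 4.86e-07, 1.14e-08 and 2.70e-10. At 6 weeks *Inhbb* was higher than at 1 week by 1.501 ± 0.27 (adjusted p = 0.00392). The differences of 3 weeks from 1 week (0.69 ± 0.27, adjusted p = 0.423) and of 6 weeks from 3 weeks (0.81 ± 0.27, adjusted p = 0.208) did not pass. In males 6 weeks differed from 1 week by 0.25 ± 0.23 (adjusted p = 0.614) with overlapping libraries. Whether the sexes differ was not tested.

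Uninduced females held more *Inhbb* than female controls, by 1.36 ± 0.27 on the log2 scale (adjusted p = 0.00521). Controls had tamoxifen and uninduced hearts did not, so the transgene and tamoxifen cannot be told apart in this comparison. With only those 2 groups in the fit, the adjusted p was 0.122. *Inhbb* was the only gene of the set to pass in uninduced hearts, 1 of 8 in females, where 2.41% of all genes were higher and 0.466% lower. *Fstl3* passed there without uninduced replicate 1 (0.85, adjusted p = 0.0414). In uninduced males 0 of 8 passed with limma, against 0.561% higher and 0.0354% lower over all genes. There, 3 of the 8, *Inhbb*, *Bmp4* and *Bmp6*, had an unadjusted p under 0.05, and edgeR passed 0 and DESeq2 1.

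*Inhba*, the activin A subunit gene (chromosome 13, 16186373 to 16206206, plus strand), was low throughout and passed at 1 time in each sex. In male controls it was at 0.974, 0.833 and 1.498 CPM, and at 1 week at 3.82, 2.31, 1.30 and 2.06 CPM, so the ranges overlapped. It rose by 0.79 ± 0.27 at 1 week in males (adjusted p = 0.0310), a call that was lost without replicate 1 at 1 week (0.57, adjusted p = 0.104) and without replicate 2 at 1 week or control replicate 1 or 3 (0.67 to 0.78, adjusted p = 0.0600 to 0.134). At 3 and 6 weeks the male values ran from 1.27 to 1.57 and from 0.653 to 1.89 CPM, and neither passed.

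Female controls held 1.12, 1.597, 1.40 and 1.497 CPM of *Inhba*. Uninduced females held 1.67, 3.02, 1.72 and 1.29 CPM, and all but the last lay above every control. The values were 1.74, 5.02, 2.01 and 2.17 CPM at 1 week, 1.49, 1.90, 1.17 and 1.44 at 3 weeks, and 2.26, 6.10, 2.56 and 2.34 at 6 weeks. The highest library at 1 week and at 6 weeks was replicate 2, the library with high atrial markers. The other libraries of both weeks lay above every control too. The part of atrial tissue in these values was not tested. At 6 weeks *Inhba* rose by 0.91 ± 0.28 (adjusted p = 0.0139). Without replicate 2 at 6 weeks the difference was 0.61 (adjusted p = 0.0705), and without both high-atrial libraries 0.61 (adjusted p = 0.0175). The 1-week difference was 0.67 ± 0.28 (adjusted p = 0.0811), and 0.38 without both libraries (adjusted p = 0.164). It passed with read-total scaling (0.93, adjusted p = 0.0132) and with the replicate number as a block (adjusted p = 0.00939).

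**Figure D2:**
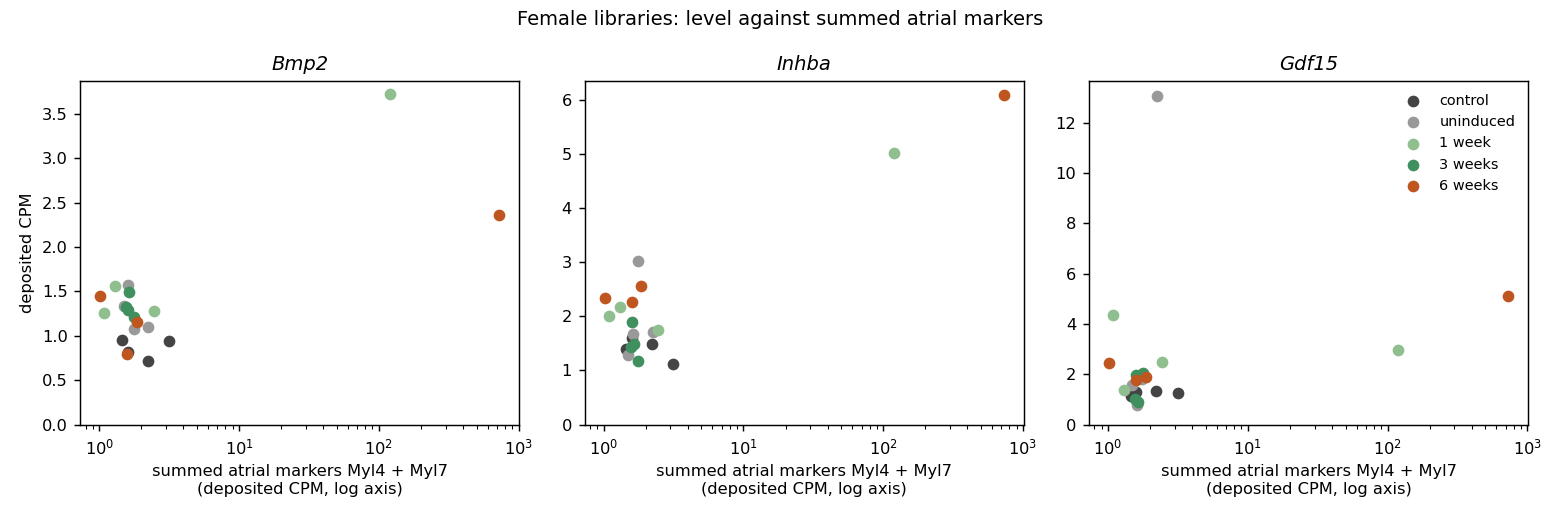
Levels of *Bmp2*, *Inhba* and *Gdf15* in the 20 female libraries (CPM, linear axis) against the summed atrial markers *Myl4* and *Myl7* (CPM, log axis), coloured by group. The 2 libraries with atrial sums of 119 and 729 CPM held 3.72 and 2.36 CPM of *Bmp2* and 5.02 and 6.10 CPM of *Inhba*.

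*Bmp4* encodes a BMP ligand that is important in heart development and vessels, and it fell in the induced hearts of both sexes. Its locus is on chromosome 14 from 46620250 to 46636745 on the minus strand and overlaps *Gm15222* on the plus strand. In males the controls held 4.42, 6.93 and 5.67 CPM and the uninduced hearts 3.32, 3.71, 2.87 and 3.12 CPM. The induced values were 5.09, 2.21, 3.36 and 2.81 at 1 week, 2.93, 3.72, 3.385 and 3.50 at 3 weeks, and 2.48, 2.68 and 4.83 at 6 weeks. Only the 3-week libraries lay wholly below the controls, and the uninduced libraries did so too.

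The male fall of *Bmp4* amounted to -0.71 ± 0.23 at 1 week, -0.65 ± 0.23 at 3 weeks and -0.72 ± 0.24 at 6 weeks (adjusted p = 0.0210, 0.0447 and 0.0322). With read-total scaling these were -0.39, -0.41 and -0.55 and none passed (adjusted p = 0.147, 0.161 and 0.0821). Single libraries also decided these calls: the 1-week one was lost without control replicate 3 or 4 or 1-week replicate 2 (-0.70 to -0.55, adjusted p = 0.0563 to 0.121), the 6-week one without control replicate 3 or 4 or 6-week replicate 1 or 3 (-0.71 to -0.56, adjusted p = 0.0736 to 0.150), and the 3-week one without control replicate 3 or 4 or any of the 4 libraries at 3 weeks (-0.69 to -0.51, adjusted p = 0.0598 to 0.219). With the replicate number as a block the adjusted p was 0.0854 at 3 weeks and 0.050004 at 6 weeks. In females the controls held 8.65, 6.48, 3.65 and 4.77 CPM, and the induced hearts 2.38, 2.79, 3.39 and 3.17 at 1 week, 3.35, 3.08, 3.63 and 2.704 at 3 weeks, and 1.63, 1.98, 1.86 and 2.62 at 6 weeks. All 12 induced female libraries were below all 4 controls.

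*Bmp4* in females differed from control by -0.84 ± 0.23, -0.74 ± 0.23 and -1.29 ± 0.23 at 1, 3 and 6 weeks (adjusted p = 0.00886, 0.0190 and 0.000150). The 6-week fall also passed with read-total scaling (-0.94, adjusted p = 0.00306), while those at 1 and 3 weeks did not (-0.53 and -0.42, adjusted p = 0.0856 and 0.172). The 3-week call was also lost without control replicate 1 or 2 or 3-week replicate 4 (-0.67 to -0.54, adjusted p = 0.0561 to 0.0837). Against the uninduced females, which held 4.85, 2.39, 5.73 and 3.12 CPM, the 6-week difference was -0.79 ± 0.23 (adjusted p = 0.0165), lost without uninduced replicate 1 or 3 (-0.69 and -0.62, adjusted p = 0.0599 and 0.0525) and with read-total scaling (-0.59, adjusted p = 0.0758). In males no week differed from uninduced by more than 0.05 in size, with an SE of 0.21 to 0.23.

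*Bmp6* (chromosome 13, 38529065 to 38684280, plus strand, overlapping *Txndc5* on the minus strand) encodes a BMP ligand made by endothelial cells and best known for control of hepcidin and iron. Its male values were 25.7, 32.2 and 27.1 CPM in controls, 19.8, 18.6, 20.5 and 19.3 in uninduced hearts, 20.1, 14.5, 17.5 and 15.8 at 1 week, 22.7, 17.9, 15.5 and 15.7 at 3 weeks, and 17.5, 18.01 and 21.9 at 6 weeks. All 11 induced and all 4 uninduced male libraries lay below the 3 controls. The fall was -0.73 ± 0.14, -0.66 ± 0.14 and -0.56 ± 0.15 (adjusted p = 0.000555, 0.00189 and 0.00930). With read-total scaling it was -0.38, -0.40 and -0.37, and the 1-week call alone held (adjusted p = 0.0482, 0.0588 and 0.101). The 6-week difference was -0.46 without control replicate 3 (adjusted p = 0.0597).

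In females *Bmp6* passed at 1 and 3 weeks. The controls held 28.5, 27.97, 20.6 and 22.4 CPM, the 1-week hearts 17.4, 18.7, 17.6 and 16.6, the 3-week hearts 18.6, 13.2, 18.1 and 21.1, and the 6-week hearts 17.6, 19.9, 21.4 and 20.8. The 1-week libraries lay below all controls, and those at 3 and 6 weeks overlapped them. The differences at 1 and 3 weeks were -0.48 ± 0.14 each (adjusted p = 0.0138 and 0.0124), and at 6 weeks -0.31 ± 0.14 (adjusted p = 0.0852). With read-total scaling the female values were -0.14, -0.14 and 0.09, so that the direction at 6 weeks flipped and no week passed (adjusted p = 0.449, 0.459 and 0.632). The 1-week call was lost without control replicate 1 or 2 (-0.41 and -0.42, adjusted p = 0.0534 and 0.0519) and the 3-week call without 3-week replicate 2 (-0.35, adjusted p = 0.0566), while the 6-week difference passed without control replicate 3 (-0.39, adjusted p = 0.0431).

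*Bmp2* (chromosome 2, 133394079 to 133404816, plus strand), a BMP ligand of valve and endothelial development, was near 1 CPM in most libraries. In males it was at 0.974, 1.59 and 1.55 CPM in controls and between 0.553 and 1.88 CPM in the induced hearts, and it passed at no week. Female controls held 0.947, 0.823, 0.951 and 0.721 CPM. Uninduced females held 1.57, 1.08, 1.10 and 1.34 CPM, all above the controls, although that comparison did not pass. The 1-week hearts held 1.28, 3.72, 1.25 and 1.56 CPM, also all above the controls. That difference was 0.75 ± 0.24 (adjusted p = 0.0230). It was 0.46 without replicate 2 at 1 week (adjusted p = 0.104), and 0.46 without both high-atrial libraries (adjusted p = 0.0408). It did not pass without control replicate 2 or 4 either (0.74 and 0.70, adjusted p = 0.0508 and 0.0599). At 3 and 6 weeks the differences were 0.43 ± 0.24 and 0.46 ± 0.24 (adjusted p = 0.189 and 0.131). The first passed without both high-atrial libraries (0.43, adjusted p = 0.0298), the second without 6-week replicate 1 (0.63, adjusted p = 0.0421), and both with read-total scaling (0.66 and 0.72).

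*Gdf15* (chromosome 8, 71082038 to 71091537, minus strand) varied more within groups than any other gene of the set, with an SE of 0.47 to 0.50. Male controls held 0.675, 1.51 and 1.12 CPM, uninduced males 1.70, 1.99, 1.89 and 1.04 CPM, and the 1-week hearts 10.9, 1.15, 0.997 and 4.12 CPM. At 3 weeks the values were 3.97, 2.15, 2.00 and 2.25, and at 6 weeks 2.31, 1.94 and 2.24, both above every male control. The 3-week libraries also lay above the uninduced ones, and the 6-week libraries overlapped with them. Female controls were close together, at 1.25, 1.31, 1.15 and 1.33 CPM, whereas uninduced females held 0.761, 1.82, 13.05 and 1.58 CPM. The female values were 2.49, 2.98, 4.35 and 1.39 CPM at 1 week, 0.893, 1.98, 2.05 and 0.999 at 3 weeks, and 1.78, 5.11, 1.90 and 2.47 at 6 weeks.

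No week passed for *Gdf15*: the male differences were 1.11 ± 0.47, 0.94 ± 0.47 and 0.76 ± 0.50 (adjusted p = 0.0745, 0.171 and 0.275), and the female ones 0.83 ± 0.49, 0.12 ± 0.49 and 0.81 ± 0.49 (adjusted p = 0.223, 0.887 and 0.188). The male 1-week difference passed with edgeR (1.96, adjusted p = 0.0163) and DESeq2 (1.94, adjusted p = 0.0107) on the recovered reads, and with limma without replicate 2 or 3 at 1 week (1.452 and 1.4997) or with read-total scaling (1.37). With only the 2 groups compared in the fit, the male 3-week and the female 1-week and 6-week differences passed (adjusted p = 0.0170, 0.0209 and 0.0215). The female 1-week and 6-week groups each include a high-atrial library, replicate 2, at 2.98 and 5.11 CPM of *Gdf15*. Those 2-group fits were not run without these libraries. Of 9 other genes of the integrated stress response, the pathway that induces *Gdf15* in many cells, only *Asns* (asparagine synthetase) was higher at 6 weeks in both sexes. It went from 1.71 ± 0.10 CPM (SD, n = 3) to 3.87 ± 0.25 (n = 3) in males and from 2.59 ± 0.30 to 4.91 ± 1.1 (n = 4 each) in females (adjusted p = 0.000116 and 0.00173). The transcription factor genes of that list, *Atf3*, *Atf4*, *Atf5* and *Ddit3*, did not pass at 6 weeks. With edgeR 1 of the 9 was higher in males and 2 in females at 6 weeks, and 0 lower. With read-total scaling these were 1 and 4 higher and 0 lower. Over all genes tested with limma, 16.2% were higher in males and 21.7% in females. At 3 weeks *Atf3* was lower in females with edgeR and with read-total scaling. The list median was 0.19 in males and -0.07 in females, against -0.01 and -0.02 over all genes.

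*Fstl1*, a secreted glycoprotein of the follistatin family made mostly by stromal cells, was the most abundant gene of the set and rose at every week in both sexes. It lies on chromosome 16 from 37597105 to 37656876 on the plus strand. Male controls held 76.4, 70.8 and 143 CPM and uninduced males 115, 90.5, 138 and 118 CPM. The induced males held 272, 319, 286 and 169 CPM at 1 week, 215, 240, 175 and 162 at 3 weeks, and 196, 250 and 157 at 6 weeks. All 11 exceeded the highest control, although that control was well above the other 2.

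The male differences of *Fstl1* were 1.47 ± 0.24, 1.09 ± 0.24 and 1.10 ± 0.26 (adjusted p = 0.000116, 0.00239 and 0.00320). Female controls held 106.2, 91.1, 107 and 114 CPM and uninduced females 125, 113, 147 and 132 CPM. The induced females held 219, 341, 232 and 237 CPM at 1 week, 235, 158, 231 and 246 at 3 weeks, and 233, 271, 363 and 227 at 6 weeks. These were 1.28 ± 0.16, 1.03 ± 0.16 and 1.36 ± 0.16 above control (adjusted p = 4.12e-06, 4.70e-05 and 1.10e-06), with all 12 libraries above all 4 controls.

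*Fstl3* (chromosome 10, 79613096 to 79618464, plus strand) encodes a follistatin-like protein that binds activins and myostatin. Male controls held 1.42, 1.55 and 1.22 CPM, and uninduced males 1.29, 0.593, 1.15 and 1.01 CPM. The 1-week males held 3.01, 1.71, 2.83 and 1.46 CPM and overlapped with controls (0.49 ± 0.24, adjusted p = 0.123). At 3 weeks the values were 3.39, 2.49, 2.96 and 2.83 and at 6 weeks 2.60, 2.05 and 4.57, all above the controls. These differences were 0.85 ± 0.24 and 0.85 ± 0.26 (adjusted p = 0.0153 and 0.0183), and the 6-week one was 0.57 (adjusted p = 0.107) without replicate 4 at 6 weeks and 0.78 (adjusted p = 0.0624) without control replicate 4. The 3-week one was 0.78 (adjusted p = 0.0606) without that control.

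Female controls held 0.904, 1.35, 1.15 and 0.942 CPM of *Fstl3* and uninduced females 1.09, 1.76, 3.22 and 2.23 CPM. The values rose to 2.099, 3.98, 2.30 and 2.99 CPM at 1 week, 2.94, 2.17, 2.50 and 2.88 at 3 weeks, and 3.13, 4.17, 4.29 and 2.03 at 6 weeks. Every induced female library lay above every control. The differences were 1.05 ± 0.23, 0.98 ± 0.23 and 1.26 ± 0.23 (adjusted p = 0.00194, 0.00321 and 0.000231).

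**Figure D3:**
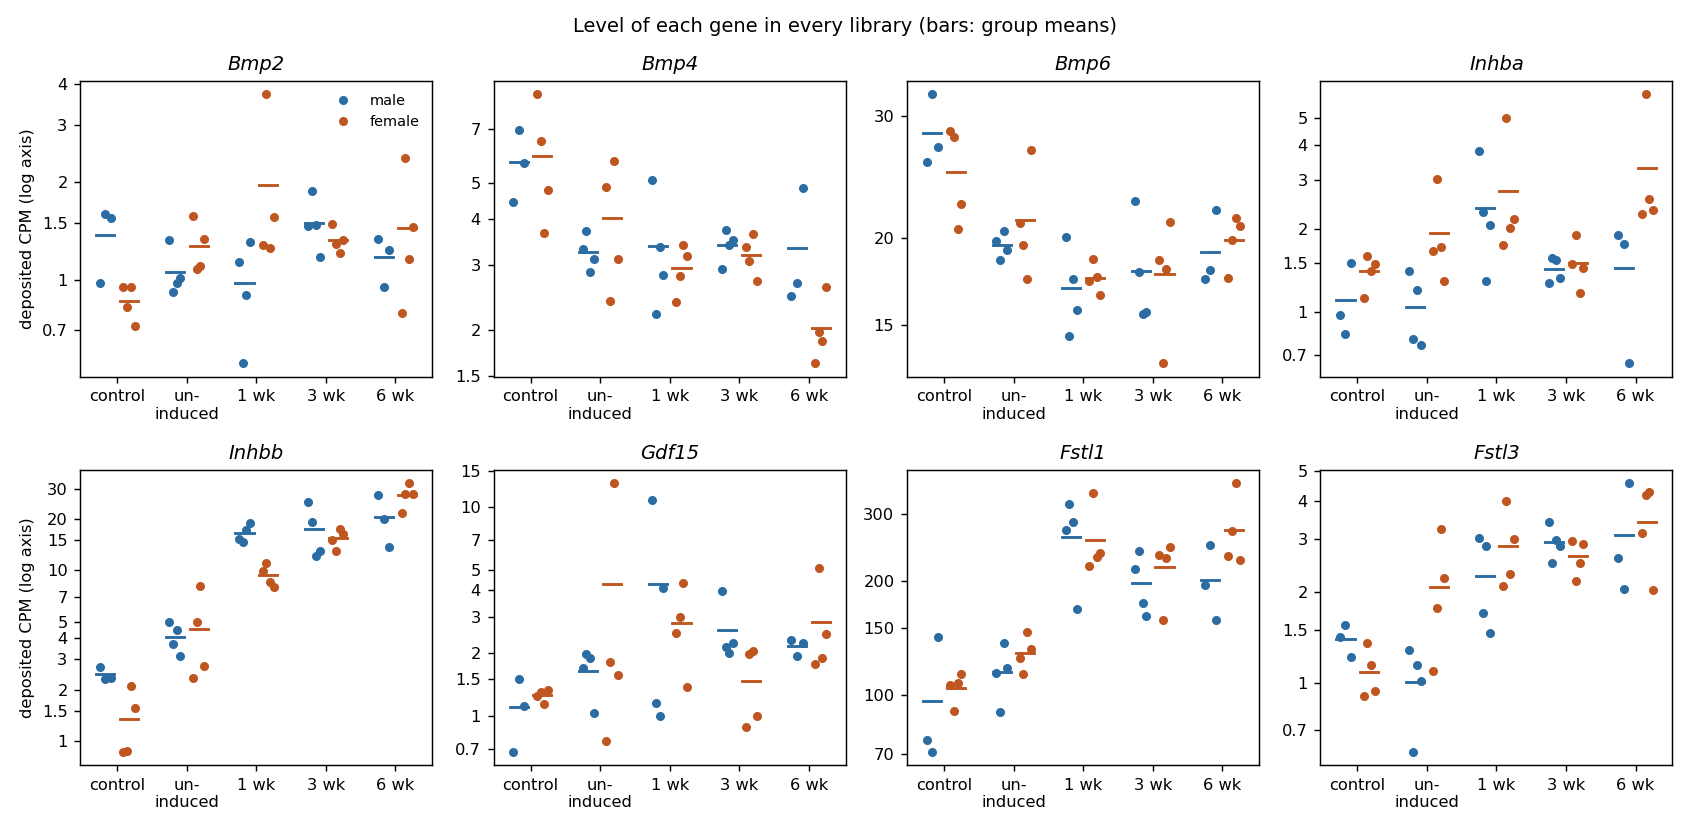
CPM of the 8 listed genes (log axis) in every library of the 5 groups, males in blue and females in orange. Points are libraries and bars are group means. *Inhbb* and *Fstl1* are above every control in all 11 male and 12 female induced libraries, and *Bmp4* is below every control in all 12 female ones.

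Induced hearts had tamoxifen and uninduced hearts did not, so between them *Il11* cannot be told apart from tamoxifen with active MerCreMer. Compared with uninduced rather than control hearts, 4, 3 and 3 of the 8 genes passed at 1, 3 and 6 weeks in males, and 2, 2 and 3 in females. Over all genes tested 18.8%, 16.1% and 20.4% passed in males and 12.6%, 16.7% and 22.8% in females. *Inhbb* and *Fstl1* were higher than uninduced in all 6 of these comparisons. *Fstl3* was higher in males at every week, by 0.84 ± 0.22, 1.195 ± 0.22 and 1.203 ± 0.24, while in females its 6-week difference was 0.62 ± 0.23 (adjusted p = 0.0608). The male 1-week call of *Fstl3* was lost without uninduced replicate 2 (0.70, adjusted p = 0.0513). *Inhba* was higher in males at 1 week (0.85, adjusted p = 0.0235), a call lost without uninduced replicate 2 or 4 or 1-week replicate 1 or 2 (0.63 to 0.83, adjusted p = 0.0543 to 0.0898). The male calls of *Fstl1* at 3 and 6 weeks (0.78 and 0.79) were lost without uninduced replicate 2 (0.66 and 0.68, adjusted p = 0.0799 and 0.0780), that at 3 weeks also without 3-week replicate 1 or 2 (0.73 and 0.68) and that at 6 weeks also without 6-week replicate 3 (0.62, adjusted p = 0.101). *Bmp6* passed in none of them.

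Between the weeks, *Inhbb* at 6 against 1 week in females was the only member to pass, 1 of 8, with 1.03% of all genes passing there. The other female contrasts, 3 against 1 week and 6 against 3 weeks, gave 0 of 8, with 0.218% and 0.0% of all genes, and 2 and 3 of the 8 had an unadjusted p under 0.05. Males gave 0 of 8 in each contrast, with 0.0177% of all genes at 3 against 1 week, 0.165% at 6 against 1 week and 0.0% at 6 against 3 weeks, and 1, 0 and 0 at an unadjusted p under 0.05. For these 5 contrasts edgeR and DESeq2 also passed 0 of 8.

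Levels of different genes were set side by side per kilobase of exon, counting every base in any annotated exon of the gene. The lengths of the transcripts present in these hearts were not measured, so the order may depend on the annotation. In male controls *Fstl1* averaged 9.58 ± 3.97 CPM per kb (SD, n = 3), overlapping *Bmp6* at 7.23 ± 0.87, and *Bmp4* followed at 1.08. *Inhbb*, *Fstl3*, *Gdf15*, *Bmp2* and *Inhba* came next, from 0.570 down to 0.155 CPM per kb, each overlapping its neighbour. In female controls the first 3 had the same order, at 10.4, 6.35 and 1.12 CPM per kb, without overlap. By 6 weeks *Inhbb* stood at 4.76 in males and 6.397 in females, overlapping *Bmp6* at 4.88 and 5.08 CPM per kb. *Bmp4* was then sixth of 8 in males and seventh of 8 in females.

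Extracellular antagonists and modulators outside the set were mostly higher where they passed. Of 18 listed by name, 16 were in the tables and 13 (male) or 16 (female) were tested. At 6 weeks 7 were higher and 1 lower in males, and 12 higher and 1 lower in females, with list medians of 0.71 in both sexes against -0.01 and -0.02 over all genes, of which 16.2% were higher and 10.9% lower in males and 21.7% and 21.0% in females. With read-total scaling the counts were 7 and 0 in males and 14 and 0 in females. *Bmper*, which encodes a secreted BMP-binding modulator, went from 2.80 ± 0.01 to 23.1 ± 5.8 CPM in males (n = 3 each) and from 3.05 ± 0.32 to 41.0 ± 10 in females (n = 4 each), a difference of 2.80 ± 0.16 and 3.52 ± 0.19 on the log2 scale. *Bmper* was also the only gene of this list to be higher in uninduced hearts of both sexes.

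*Bmp1* and *Tll1*, proteases that cleave the antagonist chordin and process procollagen, were higher as well. *Bmp1* went from 46.9 to 205 CPM in males and from 52.5 to 183 in females, and *Tll1* from 0.339 to 1.98 and from 0.145 to 2.17. *Nbl1*, a BMP antagonist of the DAN family, went from 16.9 to 61.8 and from 19.1 to 79.3 CPM. Noggin (*Nog*) and follistatin (*Fst*) were low but higher at 6 weeks in both sexes. *Nog* went from 0.257 to 1.22 CPM in males and from 0.140 to 1.46 in females, and *Fst* from 0.230 to 0.708 and from 0.271 to 0.802. The lower gene was *Htra1* in males and *Kcp* in females.

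Among other ligands, 8 of 23 named genes were listed and tested. Over the same 6-week background as for the antagonists, 2 were higher and 1 lower at 6 weeks in males, and 4 higher and 2 lower in females. *Gdf6* went from 0.380 to 1.25 CPM in males and from 0.298 to 3.12 CPM in females. *Gdf3* had 0 reads in the female controls and was at least 5.73-fold higher at 6 weeks than 3 reads in the control library where those weigh most, while in males, with 2 reads in the 3 controls together, the ratio was 41.8 with an exact 95% interval from 11.2 to 351. *Bmp7* fell from 1.95 to 0.997 CPM in males and from 1.83 to 1.07 in females, calls that were lost with read-total scaling (adjusted p = 0.0712 and 0.211). *Bmp10* was not listed. List medians were 0.09 and 0.38.

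Of 12 receptor and coreceptor genes tested, 2 were higher and 2 lower at 6 weeks in males and 4 higher and 1 lower in females, with medians of -0.12 and 0.03 and, with read-total scaling, 2 higher in males, 6 higher in females and 0 lower. The background shares over all genes were 16.2% (higher) and 10.9% (lower) for males, and 21.7% and 21.0% for females. *Acvrl1*, the endothelial type I receptor ALK1, was higher in both sexes by 0.60 ± 0.12 and 0.43 ± 0.11, and *Acvr1b*, a type I receptor for activins, by 0.33 ± 0.12 and 0.46 ± 0.09. The male *Acvr1b* call was lost in limma with median-of-ratios scaling (0.32, adjusted p = 0.0554). It held with read-total scaling (0.52, adjusted p = 0.00362). The type II receptor gene *Bmpr2* was higher in females (0.49 ± 0.14, adjusted p = 0.00630) but did not pass in males (0.18 ± 0.14, adjusted p = 0.371). The activin type II receptor gene *Acvr2a* was lower in males (-0.54 ± 0.16, adjusted p = 0.0160), a call lost with read-total scaling (-0.36, adjusted p = 0.194), and did not pass in females (0.01 ± 0.12, adjusted p = 0.936). *Acvr2b* passed in neither sex.

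Of the 6 SMAD genes, 0 passed in males at 6 weeks with limma, as with edgeR, and 2, *Smad3* and *Smad5*, were higher in females, where 21.7% of all genes were. In males 1 of the 6, *Smad2*, had an unadjusted p under 0.05, and with read-total scaling 5 of the 6 were higher in females. The BMP target genes, which SMAD1 and SMAD5 induce in many cells, gave 3 higher and 0 lower of 10 in males and 3 higher and 1 lower of 11 in females, with medians of 0.45 and 0.25, and with read-total scaling 4 and 5 were higher and 0 lower. The 6-week shares over all genes given for the receptors are the background here too. *Id2* went from 2.96 to 9.19 CPM in males and from 3.89 to 14.0 in females, and *Id4* from 0.475 to 1.02 and from 0.413 to 1.98. *Id1*, the classic target of this arm, passed in neither sex at 6 weeks, at 0.41 ± 0.27 in males and -0.44 ± 0.20 in females (adjusted p = 0.284 and 0.0856). *Bambi*, a decoy receptor gene, was higher in females (0.58 ± 0.14) and did not pass in males (0.50 ± 0.28). The lower gene in females was *Hey1*, also known as a Notch target.

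**Figure D4:**
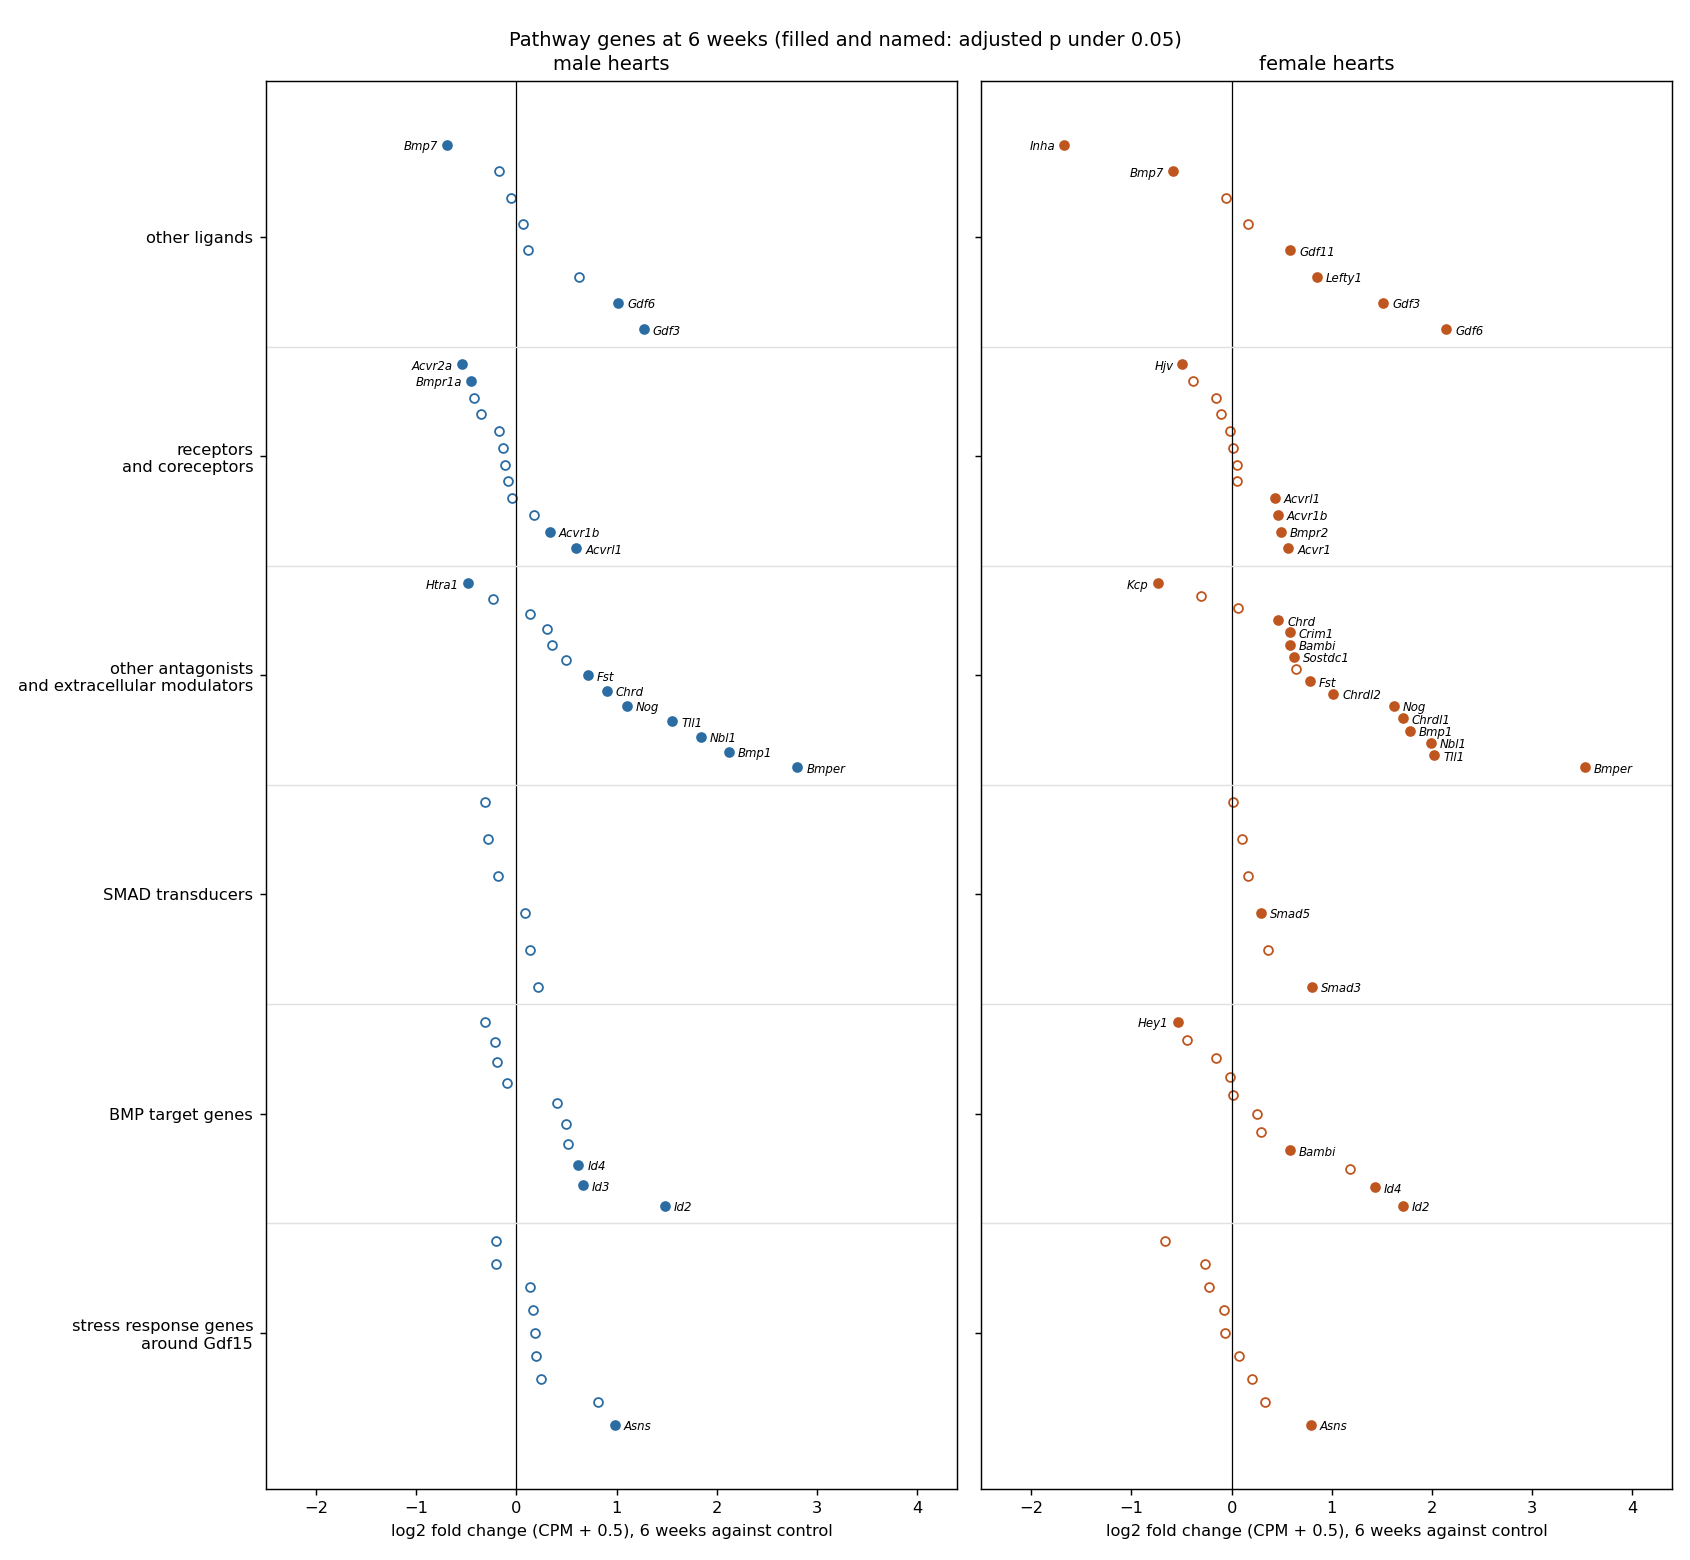
Log2 fold change at 6 weeks against control, on log2(CPM + 0.5), for the tested genes of 6 pathway lists in male and female hearts. Filled, named points have an adjusted p under 0.05 (limma). The antagonist list reaches 2.80 in males and 3.52 in females at *Bmper*, while the SMAD list has 0 named genes in males and 2 in females.

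Markers of other cells moved with these genes. All 7 macrophage markers were higher at every week in both sexes, and their summed level was 177 to 291 CPM in male controls and 659 to 1020 in induced males, and 155 to 205 and 758 to 1012 in females. Of 7 fibroblast markers, 5 or 6 were higher and 1 (*Gsn*) lower at every week. Their sum was 1242 to 1444 CPM in male controls and 1845 to 3093 in induced males, and 1671 to 1922 and 1870 to 4145 in females. Of 7 endothelial markers, 3 or 4 were lower in males and 4 or 5 in females, none higher, with sums of 936 to 1060 CPM in male controls against 584 to 835 in induced males, and 844 to 985 against 515 to 765 in females. Of 4 mesothelial markers 3 were higher in females at every week and 0 in males, with sums of 5.66 to 10.7 CPM in female controls, 11.8 to 27.2 in uninduced and 5.59 to 75.8 in induced females. Cardiomyocyte markers summed to 43851 to 54071 CPM in male controls and 24578 to 45796 in induced males, and to 27444 to 46960 and 22800 to 39059 in females. Pericyte and smooth muscle markers summed to 856 to 1048 CPM in male controls and 497 to 692 in induced males, and to 810 to 992 and 507 to 763 in females, and 1 of 6 (*Rgs5*) was lower at every week in both sexes. T cell markers summed to 1.24 to 2.36 and 2.58 to 9.45 CPM in males and to 1.40 to 2.60 and 3.91 to 14.3 CPM in females, and *Cd4* was higher at every week in both sexes. No marker of these 7 lists was at 0 in all libraries of a group. Their part in the changes of *Inhbb*, *Fstl1*, *Bmp4* and *Bmp6* was not tested. Marker sums and counts are given for the deposited scaling only. Read-total scaling, which raised the all-gene median against control, is not given for them. How far the falls of the marker sums depend on the scaling was not tested. The shares of all genes higher and lower at each week are those given above for the set.

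For each member, the 2 genes with the most similar pattern were taken by the lower of the male and female Pearson correlations of log2(CPM + 0.5), over 18 and 20 libraries and 16627 genes. The libraries share groups and scaling, so these values are descriptions. *Inhbb* was most like *Ctsz* (r = 0.96 in both sexes), a lysosomal cathepsin gene, and *Pdpn* (0.96 and 0.96), which encodes podoplanin. *Fstl1* was most like the matrix gene *Postn* (0.96 and 0.96) and *Anxa1* (0.94 and 0.95), and *Fstl3* most like *Gm9791* (0.89 and 0.89) and *Shisa5* (0.88 and 0.88).

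*Bmp6* was nearest to *Aqp1* (0.84 and 0.81), the water channel of endothelium and red cells, and *Zc3h7b* (0.79 and 0.76), and *Bmp4* to *Fzd4* (0.77 and 0.75) and *Adgrf5* (0.74 and 0.75). *Gdf15* was nearest to *Ankrd2* (0.74 and 0.74), a stress-responsive muscle gene, and the natriuretic peptide gene *Nppb* (0.74 and 0.71). The nearest genes of *Inhba* were *Dio2* (0.77 and 0.72) and *Pigk* (0.77 and 0.71). *Bmp2* had the loosest partners, *Peg12* (0.67 and 0.60) and *Chad* (0.60 and 0.82).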

How the data were processed

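PolyA RNA of mouse hearts was sequenced in 40 libraries, 38 of which had agreeing labels. Per the study's methods the authors aligned reads to GRCm39 with STAR, counted them with featureCounts on Ensembl genes and analysed them with edgeR. The strand setting of counting is not given in the sources used here. The authors deposited normalised signal values in CPM, 1 table per sex. In each library 100.0% of the values were whole multiples, within 0.001, of the value of 1 read, so the reads behind them were recovered.

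For each sex, log2(CPM + 0.5) was fitted in limma (3.58.1, under R 4.3.3), letting the prior variance follow the mean, for genes at 0.5 or more in at least 3 libraries, with the 5 groups in 1 fit, no covariates and 10 contrasts. Fold changes are on that scale and understate changes of low genes. The test was planned for CPM and was kept, although the columns do not sum to the same total. The recovered reads were tested with edgeR 4.0.16, which called 4666 male and 7068 female genes at 6 weeks against control (limma 4580 and 7245), and with DESeq2 1.42.0. The limma procedure was also run on simulated counts scaled by read totals, with a small part of the genes changed. That run does not test the deposited scaling.

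The genes, lists and named genes were chosen with earlier results of these data known. Named genes outside the set are up to 4 per list that passed at 6 weeks in both sexes in 1 direction, *Fst*, *Nog*, *Id1*, *Bambi*, *Bmp10*, *Bmpr2*, *Acvrl1*, *Acvr2a* and *Acvr2b*, and the 2 nearest genes of each member. *Htra1*, *Kcp*, *Smad2*, *Smad3*, *Smad5*, *Hey1*, *Gsn* and the transcription factor genes around *Gdf15* were named after their values were seen. An item of the antagonist list is not reported here. Other alternatives were 2 pseudocounts, 2 filters, median-of-ratios scaling, only the 2 groups compared, the replicate number as a block, and leaving out each library. Scaling by the read total alone and leaving out the 2 high-atrial libraries were added after seeing the data. Same-numbered libraries did not deviate together on average (mean correlation of residuals 0.013 in males and 0.025 in females), so numbers were not treated as pairs. Single pairs ran from -0.134 to 0.256 in males and from -0.342 to 0.563 in females. Replicates differed beyond counting noise, with a chi-square per gene of at least 6.81. Positions are from GENCODE on GRCm39 and promoters from RefSeq on GRCm38.p6, with 8 of 9 genes matched, cut to the bases before the start. P-values measure the spread between libraries, taken as separate hearts. Intervals and bounds cover counting error only.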

Additional observations from a re-analysis of the deposited data

Results flagged for a closer look

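Among 64 groups of 4 libraries, 3 (4.69%) held a library far from the other 3, and chance gives about 1 in 20. *Gdf15* was at 3.97 CPM in replicate 1 of the male 3-week hearts, above the others. *Inhba* was at 6.10 CPM in replicate 2 of the female 6-week hearts, the library with 729 CPM of summed atrial markers. *Fstl1* was at 158 CPM in replicate 2 of the female 3-week hearts, below the others.

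The change of *Inhbb* against the same female controls differed between 6 weeks and 1 week by 1.501 on the log2 scale, as tested by limma in the fit of all female groups (adjusted p = 0.00392), and all 4 libraries at 6 weeks lay above all 4 at 1 week.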

How the results depend on the processing

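Of 1473 alternative values of 82 member changes, 1382 kept their direction and their side of the threshold, 60 lost the call, 21 gained it and 10 changed sign. *Inhbb* and *Fstl1* passed against control at every induced week under every alternative run. The sign changes were all in values that did not pass. With read-total scaling *Inhba* in uninduced males was 0.0548 and *Bmp6* in females at 6 weeks 0.0857. Leaving out 1 library gave a range from -0.0600 (without control replicate 1) to 0.192 for *Bmp2* in males at 3 weeks, from -0.177 to 0.115 for *Inhba* in uninduced males (above 0 without control replicate 4 or uninduced replicate 2 or 4), from -0.0236 to 0.268 for *Gdf15* in females at 3 weeks (below 0 without 3-week replicate 2 or 3), and from -0.0268 to 0.148 for *Inhba* in females at 3 weeks (below 0 without control replicate 1 or 3-week replicate 2).

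Counts of genes passing out of 8 that moved by over 1.5 times, other than by leaving out 1 library, were these. Against control, read-total scaling gave 3 in males at 3 and at 6 weeks in place of 5. Only the 2 groups in the fit gave 3 in males at 6 weeks, 1 in uninduced males and 0 in uninduced females, 1 in females at 1 week against uninduced, and 1 in females at 3 against 1 week. DESeq2 gave 1 in uninduced males. Smaller moves against control included 6 in males at 1 week with edgeR, DESeq2 and read-total scaling in place of 5, 7 in females at 1 week with DESeq2 and 5 with read-total scaling in place of 6, and 4 and 6 in females at 3 and 6 weeks with read-total scaling in place of 5. Asking also for a log2 fold change of 1 left 2, 2 and 2 in males at 1, 3 and 6 weeks, 3 and 2 in females at 1 and 3 weeks, and, against uninduced, 2 in males at 1 week and 1 and 1 in females at 1 and 3 weeks. Leaving out 1 library gave 3 to 6 in males at 1 week and 3 to 5 at 3 and at 6 weeks, with 3 reached without control replicate 3 at 1 and 6 weeks and without control replicate 4 at 3 and 6 weeks. It gave 2 to 4 in males at 1 week against uninduced, with 2 without uninduced replicate 2, and 1 to 2 in uninduced females, with 2 without uninduced replicate 1. It gave 4 to 6 in females at 1 week (6 with all libraries), 4 to 5 at 3 weeks and 4 to 6 at 6 weeks (5 each), and, against uninduced, 2 to 4 in females at 6 weeks and 2 to 3 in males at 3 and 6 weeks (3 each).

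With the replicate number as a block, *Bmp4* in males was -0.63 (adjusted p = 0.0854) at 3 weeks and -0.72 (adjusted p = 0.050004) at 6 weeks and *Inhba* in females at 1 week passed (0.67, adjusted p = 0.00939); the counts against control were 5, 4 and 4 in males and 7, 5 and 5 in females, and the block changed no other call against control. Against uninduced, females at 6 weeks gave 4 in place of 3. The numbers were not treated as pairs in the main test. Depth limits the low genes *Bmp2*, *Inhba*, *Gdf15*, *Fstl3* and, in female controls, *Inhbb*, which had few reads there.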

Other observations

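The 2 male libraries with opposite labels gave these values. The library titled control and described as 6 weeks held 511 CPM of *Il11*, 18.1 CPM of *Inhbb*, 212 of *Fstl1*, 2.95 of *Fstl3*, 2.17 of *Bmp4*, 14.7 of *Bmp6*, 8.49 of *Gdf15*, 1.52 of *Inhba* and 1.31 of *Bmp2*. The library titled 6 weeks and described as control held 0.597 CPM of *Il11*, 2.79 CPM of *Inhbb*, 89.9 of *Fstl1*, 1.67 of *Fstl3*, 4.82 of *Bmp4*, 28.02 of *Bmp6*, 0.995 of *Gdf15*, 1.11 of *Inhba* and 1.59 of *Bmp2*.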
